A study of Homo sapiens with 24 samples.

Results

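STRA6, CRABP2, DHRS3, ALDH1A1, ALDH1A3, CYP26B1, RARB, RARG and RARRES1 are 9 genes of retinoid uptake, carriage, synthesis, breakdown, reception and response, out of 78724 gene IDs counted in 2 biliary tract cancer cell lines. They were matched by symbol. STRA6 and RARRES1 were chosen by their falls in HuCCT1 cells at 10 µM sorafenib against vehicle, and the other 7 for their place in the same pathway, so for these 9 genes that contrast is described and not tested. Its vehicle libraries also enter the HuCCT1 comparisons of 1.25 µM and of the combination with vehicle and the line differences from vehicle, so the tests of STRA6 and RARRES1 there are not independent of the choice. HuCCT1 is an intrahepatic cholangiocarcinoma line grown in RPMI-1640 and OCUG-1 is a gallbladder cancer line grown in DMEM, both with fetal bovine serum, so line and medium differ together. Each line had 4 arms of 72 h. One arm received the vehicle only (matched DMSO, at most 0.1%), others received sorafenib at 1.25 µM or at 10 µM, and the combination arm received the lower sorafenib dose together with 1 µM IACS-010759. Sorafenib is a multikinase inhibitor, and IACS-010759 inhibits complex I of the mitochondrial respiratory chain. Each of the 8 groups had 3 biological replicates, 24 libraries in all. No arm received IACS-010759 alone, and each origin is represented by 1 established line.

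Retinol reaches cells bound to a plasma carrier and enters through STRA6, a membrane receptor. Inside the cell it is oxidised to retinaldehyde and then, by ALDH1A enzymes, to retinoic acid, which CRABP2 carries to nuclear receptors of the RAR family paired with RXR, while CYP26 enzymes break it down. Retinoic acid itself induces several genes of the pathway, among them STRA6, DHRS3, CYP26 genes and RARB, so these serve as readouts of retinoid signalling in many epithelia.

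Library totals ran from 14388855 to 30693736 gene-assigned read pairs. The third HuCCT1 libraries of vehicle, 1.25 µM and 10 µM stood apart from the other 2 of their groups: the chi-square per degree of freedom over genes was 31.9 to 59 for pairs that held them and 6.08 to 13.5 for pairs that did not. Leaving out these 3 libraries together, a setting added after the data were seen, ended no call on the 9 genes and added 6, of which 5 were for CRABP2 and 1 for DHRS3. In the biliary epithelial marker list, 8 of 10 genes passed 10 CPM in HuCCT1 and 7 of 10 in OCUG-1, led by KRT7 and KRT8. No immune or endothelial marker reached that level. Levels below are CPM, counts scaled to library size, on 1 TMM scale over all 24 libraries, and changes are log2 fold changes ± SE from edgeR's quasi-likelihood test with Benjamini-Hochberg adjustment over all genes tested, called at an adjusted p under 0.05. Under TMM the median log2 change of all genes lay between -0.06 and 0.06 in each comparison. With library size as the sole scaling it was -0.14 at 1.25 µM, 0.19 for IACS-010759 added and 0.18 for 10 µM against 1.25 µM in HuCCT1, 0.21 and 0.15 for the last 2 of these in OCUG-1, and 0.20 between the vehicle groups. The share of calls that were higher then went from 54% to 26.7% for 1.25 µM in HuCCT1, from 56.2% to 28.8% for 1.25 µM in OCUG-1, from 43.5% to 82.4% for IACS-010759 added in HuCCT1 and from 51.2% to 77.5% for 10 µM against 1.25 µM in HuCCT1. In bulk libraries fewer cells that express a gene and less RNA per cell cannot be told apart.

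Without drug, among the 9 genes, the lines differed most in which retinaldehyde dehydrogenase they expressed. On the per-length scale (CPM per kb of exon), ALDH1A3 was the highest of the 9 in HuCCT1 vehicle at 116.5 ± 7.38 (SD, n = 3) and ALDH1A1 the second lowest at 1.20 ± 0.46. In OCUG-1 vehicle, ALDH1A1 stood at 37.6 ± 3.78 CPM per kb, level with DHRS3 at 37.1 ± 0.98, and ALDH1A3 at 6.58 ± 0.60. The ratio of ALDH1A3 to ALDH1A1 per length was 105.7 ± 33.9 in HuCCT1 vehicle and 0.176 ± 0.0096 in OCUG-1 vehicle. ALDH1A1 was higher in OCUG-1 by 4.98 ± 0.22 log2 units and ALDH1A3 lower (-4.15 ± 0.18), with adjusted p of 8.63e-17 and 2.53e-17.

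STRA6 was also higher in OCUG-1 vehicle (1.11 ± 0.15, adjusted p 3.34e-07), as was RARB (0.81 ± 0.31, adjusted p 0.0251). DHRS3 (-0.73 ± 0.11), CYP26B1 (-2.18 ± 0.46), RARRES1 (-0.79 ± 0.26) and RARG (-0.30 ± 0.12) were lower. CRABP2 did not pass (-0.27 ± 0.16, adjusted p 0.144). Thus 3 of the 9 were higher in OCUG-1, where 35.6% of the 22944 genes tested were, and 5 were lower, where 32.7% were. Leaving out HuCCT1 vehicle replicate 1 reduced the 8 calls to 5, with RARB at an adjusted p of 0.103, RARG at 0.119 and RARRES1 at 0.0614. RARB also missed the threshold without HuCCT1 vehicle replicate 2 (0.0979) or OCUG-1 vehicle replicate 2 (0.103), RARG without OCUG-1 vehicle replicate 2 (0.0602) or 3 (0.121), and RARG by library size alone (-0.15, adjusted p 0.297). Without HuCCT1 vehicle replicate 3, where CRABP2 was low, CRABP2 passed (-0.48, adjusted p 0.0076).

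**Figure D1:**
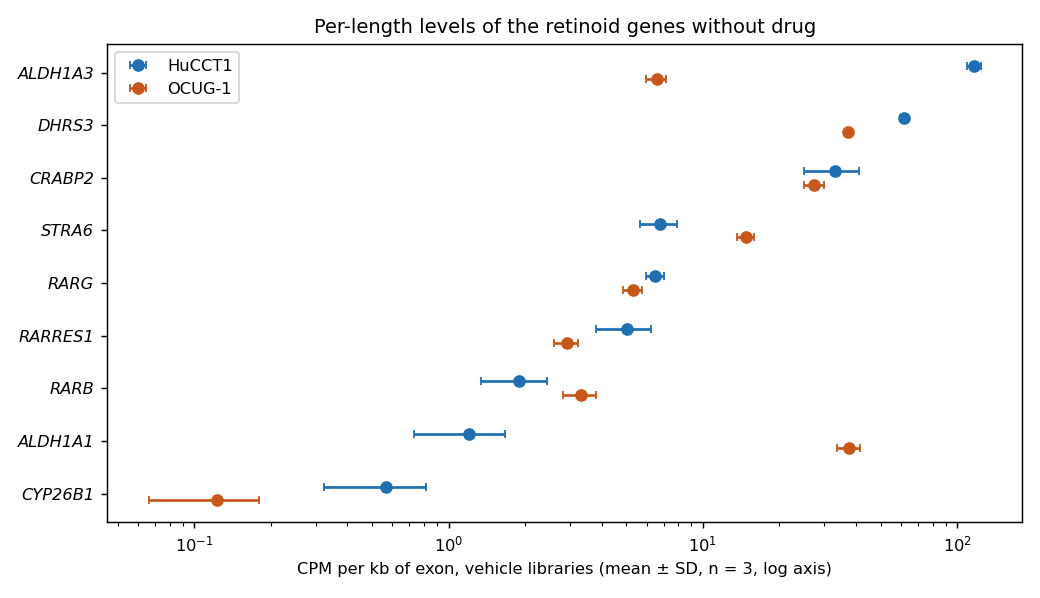
Per-length level of each gene in the vehicle libraries of HuCCT1 and OCUG-1, as CPM per kb of exon on a log axis; points are means and bars SD of 3 libraries. ALDH1A3 and ALDH1A1 exchange places between the lines, CYP26B1 is lowest in both, and CRABP2 lies close together.

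With 1.25 µM sorafenib, STRA6 and DHRS3 fell in HuCCT1 and rose in OCUG-1. In HuCCT1, STRA6, RARRES1, DHRS3 and RARG fell, 4 of 9 where 8.5% of the 19576 genes tested fell, and ALDH1A1 rose, 1 of 9 where 9.98% rose; the 4 include both genes chosen by their fall from the same vehicle libraries. In OCUG-1, STRA6, CRABP2 and DHRS3 rose, 3 of 9 where 5.92% of the 20511 genes tested rose, and none fell, where 4.61% fell. The median log2 change of the 9 genes was -0.50 in HuCCT1 and 0.32 in OCUG-1, beside 0.0032 and -0.03 for all genes tested. The change differed between lines for STRA6, RARRES1 and DHRS3 in the direction of OCUG-1, 3 of 9 where 4.96% of 22944 genes did, and for ALDH1A1 in the direction of HuCCT1, 1 of 9 where 4.69% did.

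At 10 µM the OCUG-1 genes turned down: 6 of 9 fell against vehicle, where 30.7% of all genes tested fell, and none rose, where 32.4% rose. In the HuCCT1 contrast by which STRA6 and RARRES1 were chosen, 4 of the 9 had an adjusted p under the threshold and a lower level (11.2% of all genes). In the same contrast 1 had a higher level (13%). The line difference at 10 µM reuses those libraries: 2 genes were above the threshold in the direction of OCUG-1 (20.7% of all genes) and 2 in that of HuCCT1 (23.1%), and nothing is read from these counts. Against 1.25 µM, 10 µM lowered 8 of 9 genes in OCUG-1, where 29% of all genes fell, and raised none, where 31.6% rose. The same contrast in HuCCT1, which again reuses the 10 µM libraries, had 3 lower (13.7% of all genes) and 0 higher (14.4%).

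Adding IACS-010759 to 1.25 µM sorafenib lowered 8 of the 9 genes in OCUG-1, all but CYP26B1, where 26.7% of all genes fell, and raised none, where 31.4% rose. In HuCCT1 the addition lowered RARRES1 only (6.57% of all genes fell) and raised RARG only (5.06% rose), and leaving out 1 library brought these 2 calls to 0 or 1. The difference between the lines passed the test for 8 genes, again all but CYP26B1, each more negative in OCUG-1, where 20.2% of all genes were, and for none in the other direction, where 18.6% were. Against vehicle, the combination left 7 of 9 lower in OCUG-1 (28.1% of all genes) and none higher (31.5%). In HuCCT1 it left 3 of 9 lower, STRA6, RARRES1 and DHRS3 (10.1%), and ALDH1A1 higher (9.94%). Each count given as none or 0 was also 0 at an unadjusted p under 0.05 and by DESeq2, except that CRABP2 was higher by both in OCUG-1 at 10 µM. Comparisons within a line share their vehicle or 1.25 µM libraries and are not independent of each other.

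Marker sums and the mitochondrial share also differed between the OCUG-1 arms. The summed CPM of the 10 biliary markers was 6800 to 7483 in vehicle, 9692 to 10040 at 1.25 µM, 2203 to 3420 at 10 µM and 2369 to 3194 in the combination, with no marker at 0 in every library. The summed stellate and fibroblast list was 147.9 to 166, 181.6 to 204.6, 76.1 to 105.7 and 57.6 to 73.4 CPM in the same order, with 2 of its 10 genes over 10 CPM. The hepatocyte list, with 1 of 10 over 10 CPM and 1 gene at 0, was 103.2 to 130.8, 34.6 to 36.5, 8.87 to 11.0 and 5.84 to 8.63 CPM. The mitochondrially encoded share of counts was 11.1% to 13.6% in vehicle, 9.39% to 13.1% at 1.25 µM, 5.65% to 6.25% at 10 µM and 4.71% to 6.48% in the combination. In HuCCT1 it was 7.08% to 14.1%, 12.5% to 21.8%, 8.32% to 11.6% and 10.4% to 12.6%. Thus the biliary and fibroblast sums were higher than vehicle at 1.25 µM and lower in the other 2 arms, the hepatocyte sum was lower in all 3, and the mitochondrial share overlapped vehicle at 1.25 µM and was lower in the other 2. Genes of a list did not all move with its sum. At 10 µM against vehicle, 6 of 10 biliary markers fell, while SOX9 (1.00 ± 0.12) and KRT7 (0.47 ± 0.18) rose. In the fibroblast list 3 of 7 tested fell and RGS5 rose (1.20 ± 0.21). In the hepatocyte list, in vehicle mostly FGB (110.4 CPM), 4 of 5 tested fell and ALB rose (3.41 ± 0.55). Of all genes, 30.7% fell and 32.4% rose. SOX9, KRT7, RGS5 and ALB also rose in the combination. The part of the sums and of the mitochondrial share in the results was not tested.

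**Figure D2:**
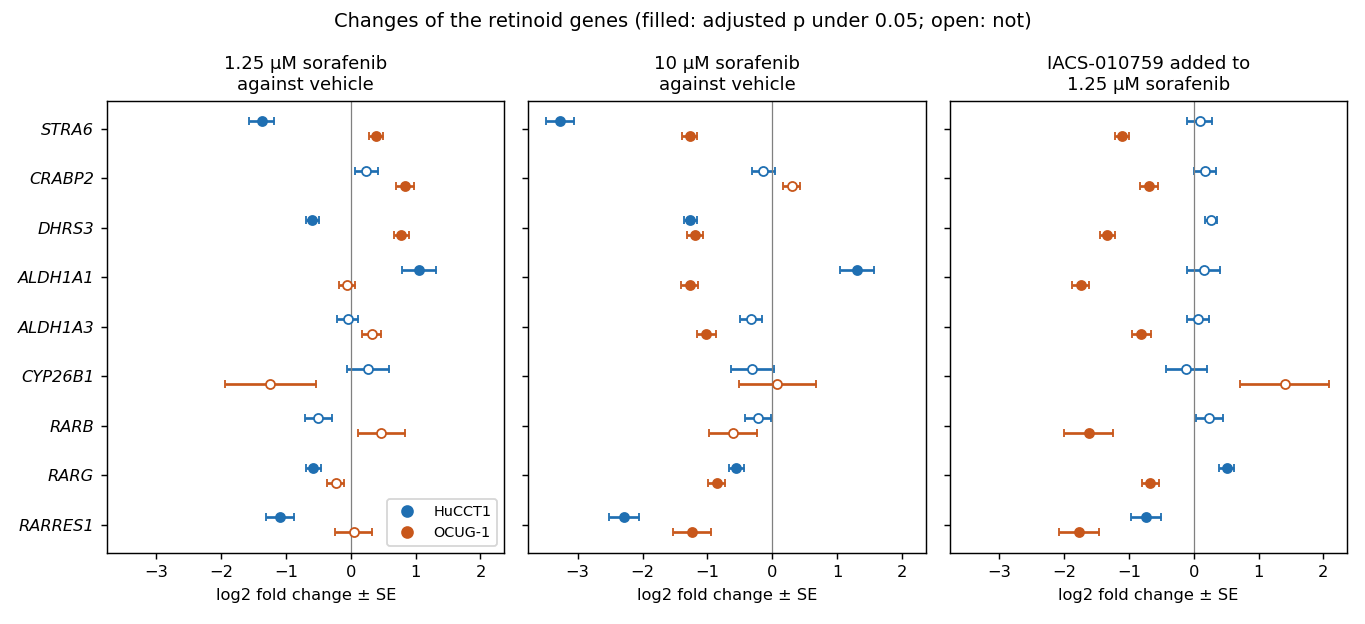
Log2 fold change ± SE of each gene for 1.25 µM sorafenib and 10 µM sorafenib against vehicle and for IACS-010759 added to 1.25 µM, in HuCCT1 and OCUG-1, from 3 libraries a group; filled points had an adjusted p under 0.05. With IACS-010759 added, 8 OCUG-1 points are filled and left of 0 (26.7% of all genes fell), while 7 HuCCT1 points are open. The HuCCT1 points of the middle panel come from the contrast by which STRA6 and RARRES1 were chosen.

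STRA6 (ENSG00000137868, chr15:74179466-74212267, minus strand) is the retinol uptake receptor. Its CPM in the 3 HuCCT1 libraries of each arm was 61.6, 50.8 and 44.5 in vehicle, 21.1, 23.0 and 16.4 at 1.25 µM, 6.17, 6.34 and 3.58 at 10 µM, and 26.4, 18.0 and 20.2 in the combination. In OCUG-1 it was 123.6, 106.3 and 110.2 in vehicle, 160.8, 152.2 and 140.7 at 1.25 µM, 50.2, 43.5 and 39.99 at 10 µM, and 57.7, 70.3 and 66.4 in the combination. Every HuCCT1 library at 1.25 µM lay below every vehicle library, whereas in OCUG-1 every library at 1.25 µM lay above. Over the 8 groups the order ran from OCUG-1 at 1.25 µM and in vehicle, through the OCUG-1 combination, HuCCT1 vehicle and OCUG-1 at 10 µM, to the HuCCT1 combination, 1.25 µM and 10 µM; OCUG-1 combination and HuCCT1 vehicle overlapped, as did HuCCT1 vehicle and OCUG-1 at 10 µM, and the HuCCT1 combination and 1.25 µM.

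In HuCCT1, STRA6 fell at 1.25 µM (-1.37 ± 0.19, adjusted p 0.000295), and the value at 10 µM, the one it was chosen by, was -3.27 ± 0.21. Adding IACS-010759 gave 0.09 ± 0.19 (adjusted p 0.802). In OCUG-1, STRA6 rose at 1.25 µM (0.39 ± 0.11, adjusted p 0.0344), fell at 10 µM (-1.27 ± 0.11, adjusted p 2.32e-08) and fell when IACS-010759 was added (-1.11 ± 0.11, adjusted p 1.8e-07). The rise at 1.25 µM missed the threshold without OCUG-1 vehicle replicate 2 or 3 (adjusted p 0.0893 and 0.124) or 1.25 µM replicate 1 or 2 (0.07 and 0.106), and by library size alone (0.29, adjusted p 0.0994). The lines differed by 1.79 ± 0.22 at 1.25 µM (adjusted p 9.36e-06) and by -1.32 ± 0.22 for the addition of IACS-010759 (adjusted p 2.52e-05). Exons of CCDC33 on the opposite strand cover 7.02% of STRA6 exon bases, and without a stated strand option reads there cannot be told apart.

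**Figure D3:**
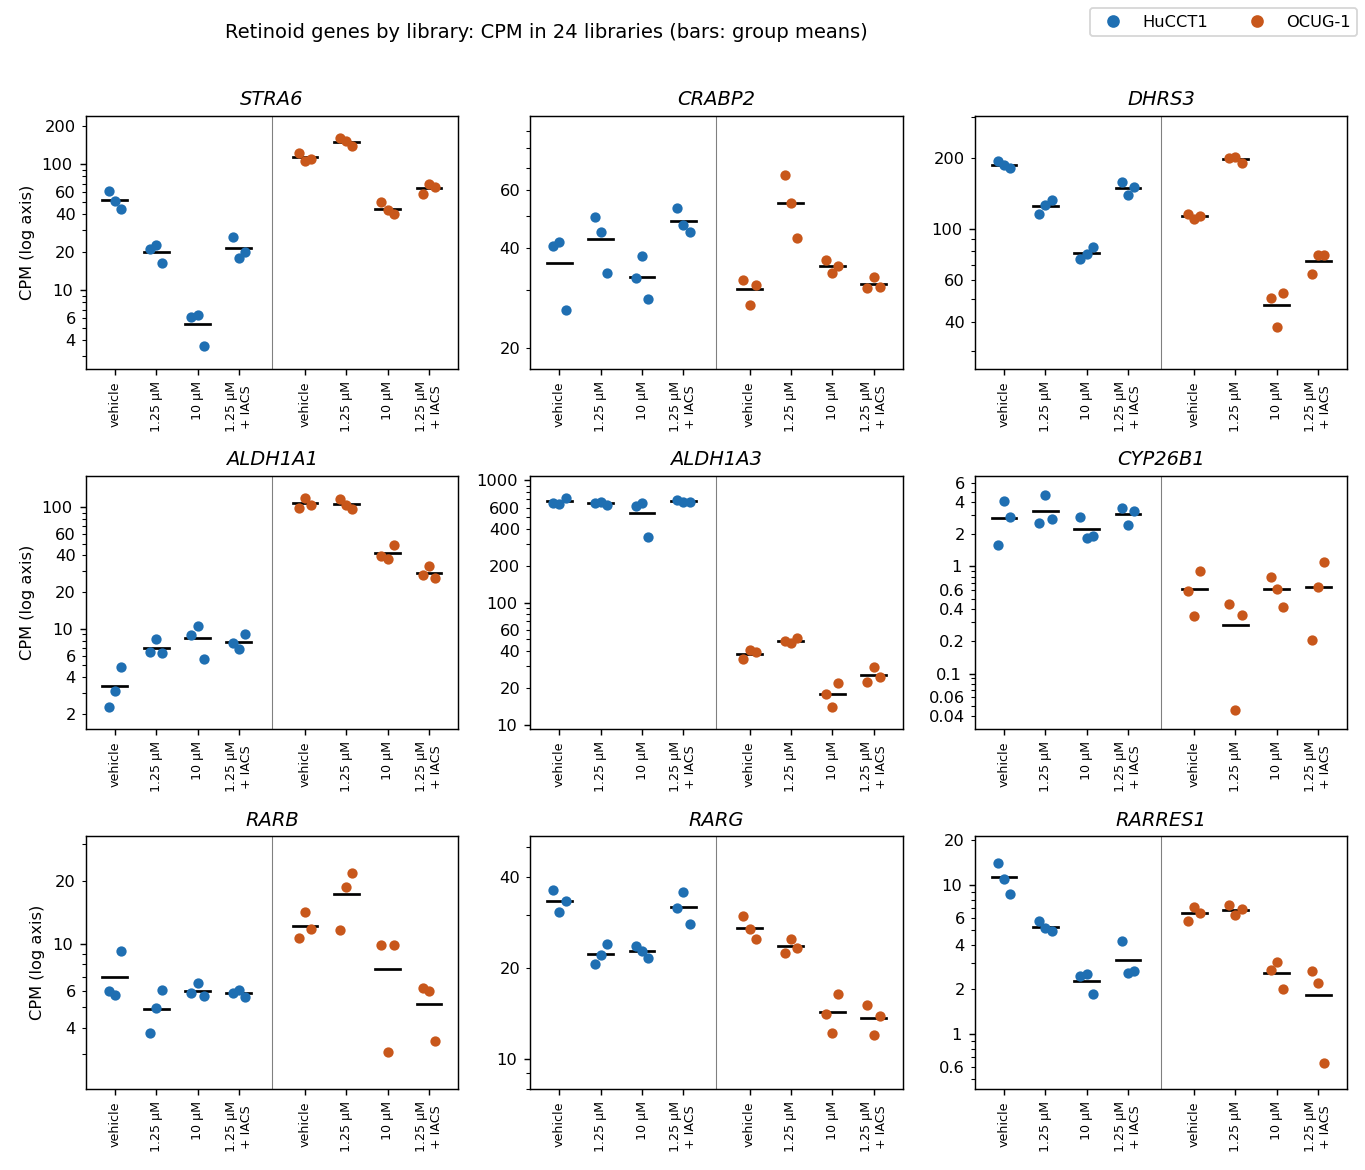
CPM of each gene in all 24 libraries on log axes that differ between panels; blue points are HuCCT1, orange points OCUG-1, and black bars group means of 3 libraries. In OCUG-1, STRA6 and DHRS3 are highest at 1.25 µM and lowest at 10 µM, while in HuCCT1 both decline from vehicle to 1.25 µM to 10 µM.

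CRABP2 (ENSG00000143320, chr1:156699606-156705816, minus strand) delivers retinoic acid to nuclear receptors. In OCUG-1 its CPM was 32.2, 27.0 and 31.1 in vehicle, 66.6, 54.9 and 42.9 at 1.25 µM, 36.8, 33.6 and 35.5 at 10 µM, and 30.4, 32.9 and 30.7 in the combination. All 3 libraries at 1.25 µM lay above every other OCUG-1 library, and the vehicle and combination libraries overlapped. The rise at 1.25 µM was 0.84 ± 0.13 (adjusted p 0.000954) and the fall on adding IACS-010759 was -0.69 ± 0.13 (adjusted p 0.000219), which left the combination 0.15 ± 0.13 from vehicle (adjusted p 0.361). At 10 µM the change of 0.30 ± 0.13 had an adjusted p of 0.0566, and 0.0462 by DESeq2.

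In HuCCT1, CRABP2 ranged from 26.1 to 41.9 CPM in vehicle, 33.7 to 49.5 at 1.25 µM, 28.1 to 38.0 at 10 µM and 44.7 to 53.0 in the combination, and no change passed the test. The combination lay above every vehicle library, at 0.42 ± 0.17 (adjusted p 0.106). The third library was lowest in all 4 arms. The lines differed when IACS-010759 was added (-0.98 ± 0.23, adjusted p 0.0009). At 1.25 µM the difference of 0.63 ± 0.23 had an adjusted p of 0.0772, and 0.0137 without HuCCT1 vehicle replicate 3 or 0.0338 without OCUG-1 1.25 µM replicate 3.

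DHRS3 (ENSG00000162496, chr1:12567910-12617731, minus strand), which reduces retinaldehyde back to retinol and is itself induced by retinoic acid, had the widest range of group means in OCUG-1 among the members with a group mean over 10 CPM. Its CPM there was 115.3, 109.5 and 113.5 in vehicle, 200.2, 201.6 and 190.7 at 1.25 µM, 50.6, 37.8 and 53.0 at 10 µM, and 63.7, 76.7 and 76.9 in the combination. No 2 of the 4 OCUG-1 arms overlapped. In HuCCT1 it was 195.3, 186.2 and 181.2 in vehicle, 114.9, 126.1 and 131.8 at 1.25 µM, 73.9, 77.8 and 83.1 at 10 µM, and 158.3, 139.5 and 149.9 in the combination, again with no overlap between arms.

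DHRS3 rose at 1.25 µM in OCUG-1 (0.78 ± 0.12, adjusted p 0.000646) and fell in HuCCT1 (-0.59 ± 0.09, adjusted p 0.000714), a difference between lines of 1.4 ± 0.15 (adjusted p 1.09e-06). At 10 µM it fell in OCUG-1 (-1.19 ± 0.12, adjusted p 1.15e-07), and the value in HuCCT1 was -1.26 ± 0.10. Adding IACS-010759 lowered it in OCUG-1 (-1.33 ± 0.12, adjusted p 3.8e-08) and gave 0.26 ± 0.09 in HuCCT1 (adjusted p 0.0815), a line difference of -1.71 ± 0.15 (adjusted p 5.95e-10). The HuCCT1 value passed by DESeq2 (adjusted p 0.0359), by library size alone (0.45, adjusted p 0.00981) and without the 3 libraries that stood apart (0.31, adjusted p 0.0018). The HuCCT1 combination was below vehicle (-0.33 ± 0.09, adjusted p 0.0214), a call lost without vehicle replicate 1 (0.0833), combination replicate 2 (0.102) or 3 (0.0752), by library size alone (0.0667) and without the filter on low counts (0.0775).

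ALDH1A1 (ENSG00000165092, chr9:72900662-73080442, minus strand) and ALDH1A3 (ENSG00000184254, chr15:100877714-100916626, plus strand) both oxidise retinaldehyde to retinoic acid. ALDH1A1 in HuCCT1 had 2.27, 3.11 and 4.86 CPM in vehicle, 6.43, 8.23 and 6.30 at 1.25 µM, 8.88, 10.6 and 5.62 at 10 µM, and 7.65, 6.78 and 9.05 in the combination. Every treated HuCCT1 library lay above every vehicle library, at counts of 55 to 262 reads a library. In OCUG-1 the same gene had 98.6, 119.1 and 103.2 CPM in vehicle, 115.6, 103.3 and 96.7 at 1.25 µM, 39.8, 37.5 and 49.1 at 10 µM, and 27.8, 32.8 and 26.2 in the combination. Vehicle and 1.25 µM overlapped there, and the other arms lay below both.

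ALDH1A1 thus rose in HuCCT1 at 1.25 µM (1.05 ± 0.27, adjusted p 0.0132) and in the combination against vehicle (1.20 ± 0.26, adjusted p 0.00421), with 1.3 ± 0.26 at 10 µM. In OCUG-1 it gave -0.05 ± 0.12 at 1.25 µM (adjusted p 0.813) and fell at 10 µM (-1.28 ± 0.12, adjusted p 6.38e-08) and when IACS-010759 was added (-1.74 ± 0.13, adjusted p 2.63e-09). The lines differed by -1.08 ± 0.29 at 1.25 µM (adjusted p 0.0177) and by -2.01 ± 0.27 for IACS-010759 (adjusted p 1.62e-06). Without HuCCT1 vehicle replicate 1 the rise at 1.25 µM was 0.81 (adjusted p 0.0709) and the line difference -0.83 (0.0672), and without 1.25 µM replicate 2 they were 0.91 (0.0736) and -0.92 (0.0773).

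ALDH1A3 in HuCCT1 had 649, 646.8 and 721.7 CPM in vehicle, 658.7, 663.1 and 623.4 at 1.25 µM, 621.6, 648.3 and 342.1 at 10 µM, and 694.2, 670.4 and 671.8 in the combination. The third 10 µM library lay far below the other 11 HuCCT1 libraries, and without the 3 libraries that stood apart the value at 10 µM went from -0.32 to -0.03. No HuCCT1 change of ALDH1A3 passed the test. In OCUG-1 the CPM was 34.2, 40.8 and 39.0 in vehicle, 48.2, 46.3 and 50.9 at 1.25 µM, 17.7, 13.9 and 22.1 at 10 µM, and 22.3, 29.5 and 24.6 in the combination. The 1.25 µM libraries lay above every vehicle library, at 0.32 ± 0.14 (adjusted p 0.153), and the 10 µM and combination libraries below.

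ALDH1A3 fell in OCUG-1 at 10 µM (-1.02 ± 0.15, adjusted p 8.66e-06) and when IACS-010759 was added (-0.81 ± 0.15, adjusted p 0.000113), and for the latter the lines differed by -0.99 ± 0.23 (adjusted p 0.00117). An annotated antisense gene, AC015712.2, covers 27.5% of ALDH1A3 exon bases and had a median of 1663.5 reads in HuCCT1 and 52.5 in OCUG-1, so part of either count may belong to the other. The per-length ratio of ALDH1A3 to ALDH1A1 was 46.4 ± 5.80 at 1.25 µM, 31.6 ± 2.55 at 10 µM and 43.4 ± 6.19 in the combination in HuCCT1. In OCUG-1 it was 0.229 ± 0.028, 0.208 ± 0.0218 and 0.434 ± 0.0341. ALDH1A3 therefore exceeded ALDH1A1 in each HuCCT1 arm and was below it in each OCUG-1 arm.

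CYP26B1 (ENSG00000003137, chr2:72129238-72148038, minus strand), a cytochrome P450 that inactivates retinoic acid, was the lowest of the 9 per length in both vehicle groups. It lay between 1.59 and 4.64 CPM in every HuCCT1 library, and the 4 arms overlapped. OCUG-1 libraries held 1 to 22 reads, which is 0.0458 to 1.10 CPM, and the 4 arms overlapped there too. None of the 10 within-line changes passed the test; the widest, 1.4 ± 0.69 on adding IACS-010759 in OCUG-1, had an adjusted p of 0.0883, and 0.0345 without combination replicate 1.

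RARB (ENSG00000077092, chr3:25174332-25597932, plus strand) encodes retinoic acid receptor beta, which retinoic acid induces through an element close to one of its own start sites. RARB was the sole member with a direct repeat of the retinoid receptor half-site in its promoter windows, so that stretch is shown here. The windows, from 250 bases before to 50 after each RefSeq start on GRCh38.p14, numbered 18 for the 9 genes. Both strands were searched for 2 half-sites, each AGGTCA or AGTTCA or GGGTCA or GGTTCA, in the same direction and separated by 1, 2 or 5 bases. The 5-base form lay 53 to 37 bases before the start in 1 of the 4 RARB windows, at chr3:25428210-25428226 on the plus strand. It is printed with its flanks, chr3:25428170-25428266, with the half-sites in capitals.
RARB window: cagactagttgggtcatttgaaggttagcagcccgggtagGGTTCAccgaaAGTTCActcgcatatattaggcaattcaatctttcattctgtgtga
The 5-base form occurred in 31 of 35116 windows of all genes (0.0883%), the 2-base form in 14 (0.0399%) and the 1-base form in 46 (0.131%). A match is a description of the letters, and counts per gene do not show which RARB start was used.

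RARB in OCUG-1 had 10.7, 14.3 and 11.9 CPM in vehicle, 11.7, 18.6 and 21.8 at 1.25 µM, 9.94, 3.06 and 9.93 at 10 µM, and 6.15, 5.98 and 3.44 in the combination. The combination libraries lay below all vehicle and all 1.25 µM libraries, whereas vehicle and 1.25 µM overlapped and 1 library at 10 µM stood well below the other 2. It fell when IACS-010759 was added (-1.62 ± 0.38, adjusted p 0.00279) and gave 0.47 ± 0.36 at 1.25 µM (adjusted p 0.429) and -0.61 ± 0.37 at 10 µM (adjusted p 0.167). In HuCCT1 it ranged from 3.75 to 9.31 CPM with all 4 arms overlapping, and no change passed; at 1.25 µM it gave -0.50 ± 0.21 (adjusted p 0.108), and 0.0414 without 1.25 µM replicate 3. The lines differed for the addition of IACS-010759 by -1.98 ± 0.46 (adjusted p 0.00124). The fall of the OCUG-1 combination against vehicle (-1.15 ± 0.38, adjusted p 0.0208) was lost without vehicle replicate 2 (0.0615) or combination replicate 3 (0.0725) and without the low-count filter (0.0856).

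RARG (ENSG00000172819, chr12:53210567-53232980, minus strand), the receptor gamma typical of epithelia, had 36.2, 30.5 and 33.4 CPM in HuCCT1 vehicle, 20.6, 22.1 and 24.1 at 1.25 µM, 23.6, 22.8 and 21.6 at 10 µM, and 31.5, 35.6 and 28.0 in the combination. The 2 sorafenib arms overlapped each other and lay below vehicle and the combination, which also overlapped. RARG fell in HuCCT1 at 1.25 µM (-0.58 ± 0.12, adjusted p 0.00307) and rose when IACS-010759 was added (0.51 ± 0.12, adjusted p 0.0104), leaving -0.07 ± 0.11 against vehicle (adjusted p 0.699). The rise was lost without 1.25 µM replicate 1 (0.46, adjusted p 0.0502) or 2 (0.50, 0.0512) or combination replicate 2 (0.42, 0.0646).

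In OCUG-1, RARG had 29.6, 26.8 and 25.0 CPM in vehicle, 22.4, 24.9 and 23.3 at 1.25 µM, 14.1, 12.3 and 16.5 at 10 µM, and 15.2, 12 and 13.9 in the combination. Each library of the last 2 arms lay below each of the first 2. The falls were -0.86 ± 0.13 at 10 µM (adjusted p 1.5e-05) and -0.67 ± 0.13 on adding IACS-010759 (adjusted p 0.000286), the latter in the opposite direction to HuCCT1, with a line difference of -1.30 ± 0.18 (adjusted p 9.07e-07). RARG stood above RARB per length by a ratio of 3.61 ± 0.93 in HuCCT1 vehicle and 1.63 ± 0.34 in OCUG-1 vehicle.

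RARRES1 (ENSG00000118849, chr3:158696892-158732696, minus strand), named as a retinoic acid receptor responder and first found as a gene induced by a synthetic retinoid, was low in both lines. In HuCCT1 it had 14.2, 11.0 and 8.67 CPM in vehicle, 5.76, 5.15 and 4.92 at 1.25 µM, 2.47, 2.52 and 1.88 at 10 µM, and 4.20, 2.59 and 2.67 in the combination. Every treated library lay below every vehicle library. In OCUG-1 it had 5.77, 7.18 and 6.55 CPM in vehicle, 7.41, 6.27 and 6.87 at 1.25 µM, 2.70, 3.06 and 2.02 at 10 µM, and 2.64, 2.22 and 0.647 in the combination. Vehicle and 1.25 µM overlapped in OCUG-1, and so did 10 µM and the combination, which lay below them.

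RARRES1 fell in HuCCT1 at 1.25 µM (-1.10 ± 0.22, adjusted p 0.00314), with -2.29 ± 0.23 at 10 µM, the value it was chosen by. In OCUG-1 it gave 0.04 ± 0.28 at 1.25 µM (adjusted p 0.944) and fell at 10 µM (-1.24 ± 0.29, adjusted p 0.00121). Adding IACS-010759 lowered it in OCUG-1 (-1.77 ± 0.31, adjusted p 8.21e-05) and in HuCCT1 (-0.73 ± 0.23, adjusted p 0.0484). The HuCCT1 call was lost without 1.25 µM replicate 1 (adjusted p 0.155) or 2 (0.123), combination replicate 2 (0.178) or 3 (0.18), and by library size alone (-0.54, adjusted p 0.114). The line difference for IACS-010759 was -1.16 ± 0.40 (adjusted p 0.0209), and missed the threshold without HuCCT1 combination replicate 1 (-0.86, 0.112) or OCUG-1 combination replicate 3 (-0.78, 0.0717). The line difference at 1.25 µM (1.17 ± 0.37, adjusted p 0.0416) missed it without HuCCT1 vehicle replicate 1, HuCCT1 1.25 µM replicate 1 or 2, OCUG-1 vehicle replicate 1 or 3, or any OCUG-1 1.25 µM replicate, at adjusted p of 0.0604 to 0.126. On the opposite strand, exons of MFSD1 cover 14.8% of RARRES1 exon bases and those of antisense AC080013.1 cover 11.9%. MFSD1 had a median of 1240 reads a library in HuCCT1 and 1232 in OCUG-1, against 13 to 374 for RARRES1 over all libraries, so without a stated strand option reads of the shared bases cannot be told apart.

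Of the wider retinoid pathway, 73 further genes were placed in 6 lists by role. In the list of carriers and uptake genes, 4 of 11 were tested in HuCCT1 and 5 in OCUG-1; in HuCCT1, 2 rose and 1 fell at 1.25 µM (9.98% and 8.5% of all genes) and 1 rose and 1 fell at 10 µM (13% and 11.2%). In OCUG-1, 1 rose at 1.25 µM (5.92%), and 1 rose and 3 fell at 10 µM (32.4% and 30.7%). FABP5, a carrier of fatty acids and retinoic acid, rose at 1.25 µM in HuCCT1 (1.17 ± 0.16, adjusted p 0.000268) and at 10 µM in OCUG-1 (0.73 ± 0.13, adjusted p 5.73e-05). In the storage list, 6 of the 8 tested fell in OCUG-1 at 10 µM (30.7% of all genes) and 6 of 8 when IACS-010759 was added (26.7%), with 1 higher each time (32.4% and 31.4%). There, PNPLA3, a lipase of retinyl esters and triglycerides, fell at 10 µM (-2.18 ± 0.16, adjusted p 1.81e-09). BCO2, a carotenoid-cleaving enzyme, fell in the OCUG-1 combination against vehicle (-2.29 ± 0.23, adjusted p 1.12e-07). The HuCCT1 combination against vehicle had 1 of 6 tested higher and 1 lower (9.94% and 10.1% of all genes). These were BCO2, which rose (0.91 ± 0.24, adjusted p 0.0127), and RPE65, which fell (-0.72 ± 0.17, adjusted p 0.00661).

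In the synthesis list, 7 of the 14 tested fell and 3 rose in OCUG-1 at 10 µM (30.7% and 32.4% of all genes), and 6 fell and 1 rose when IACS-010759 was added (26.7% and 31.4%). In HuCCT1, 3 of 12 rose in each of those comparisons (13% and 5.06%). AKR1B10, which reduces retinaldehyde, rose at 10 µM in HuCCT1 (1.29 ± 0.24, adjusted p 0.001) and fell in the OCUG-1 combination against vehicle (-2.71 ± 0.21, adjusted p 5.75e-08). AKR1C3, a related reductase, likewise rose in the HuCCT1 combination (1.25 ± 0.20, adjusted p 0.000428) and fell in the OCUG-1 combination (-1.99 ± 0.16, adjusted p 1.6e-08). In vehicle, mean AKR1B10 and AKR1C3 were 2.36 and 3.27 CPM in HuCCT1 and 414.8 and 496.4 in OCUG-1. SDR16C5, which oxidises retinol, rose at 10 µM in both lines (1.06 ± 0.16 in HuCCT1 and 2.33 ± 0.26 in OCUG-1). Its mean in vehicle and at 10 µM was 23.3 and 48.8 CPM in HuCCT1. In OCUG-1 these means were 0.73 and 3.53 CPM, so the larger log2 change started near the floor. No breakdown gene of the list of 5 was tested in HuCCT1. In OCUG-1 both tested, CYP3A4 and UGT2B7, fell at 10 µM (-4.09 ± 0.54 and -1.25 ± 0.22), where 30.7% of all genes fell. CYP3A4 was near the floor, at a mean of 1.37 CPM in vehicle and 0.072 at 10 µM, so the size of its change is uncertain.

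In the receptor and cofactor list, 4 of 10 fell and 1 rose in HuCCT1 at 10 µM (11.2% and 13% of all genes), and 5 of 10 fell and 1 rose in OCUG-1 (30.7% and 32.4%). RXRB and RXRA, partners of the RAR proteins, fell in OCUG-1 at 10 µM (-1.10 ± 0.10 and -0.75 ± 0.12), while RARA rose in the OCUG-1 combination against vehicle (0.84 ± 0.12, adjusted p 9.69e-06). In the response list, 10 of the 15 tested fell and 2 rose in OCUG-1 when IACS-010759 was added (26.7% and 31.4% of all genes), and 8 fell and 3 rose at 10 µM (30.7% and 32.4%). In HuCCT1, 1 of 13 fell and 1 rose with IACS-010759 (6.57% and 5.06%), close to the shares of all genes, and 3 fell and 1 rose at 10 µM (11.2% and 13%). PLAAT4, another gene found as retinoid-induced, fell at 10 µM in HuCCT1 (-0.82 ± 0.11, adjusted p 6.68e-05) and on adding IACS-010759 in OCUG-1 (-1.04 ± 0.13, adjusted p 2.36e-06). TGM2, transglutaminase 2, fell at 10 µM in HuCCT1 (-1.39 ± 0.15, adjusted p 1.42e-05). Mean TGM2 in OCUG-1 was 5.48 CPM in vehicle, 14.3 at the lower sorafenib dose, 7.32 at 10 µM and 11.0 in the combination. HOXB2 (1.63 ± 0.33, adjusted p 0.00271) and GPRC5A (0.54 ± 0.12, adjusted p 0.00381) rose in the HuCCT1 combination against vehicle. HOXB2 was low there, at a mean of 1.42 CPM in vehicle and 4.38 in the combination. MEIS2 and NR2F1, developmental transcription factors, fell in OCUG-1 (-1.49 ± 0.12 at 10 µM and -1.31 ± 0.14 on adding IACS-010759). RAI14 rose in OCUG-1 at 10 µM (0.80 ± 0.10, adjusted p 1.46e-06).

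**Figure D4:**
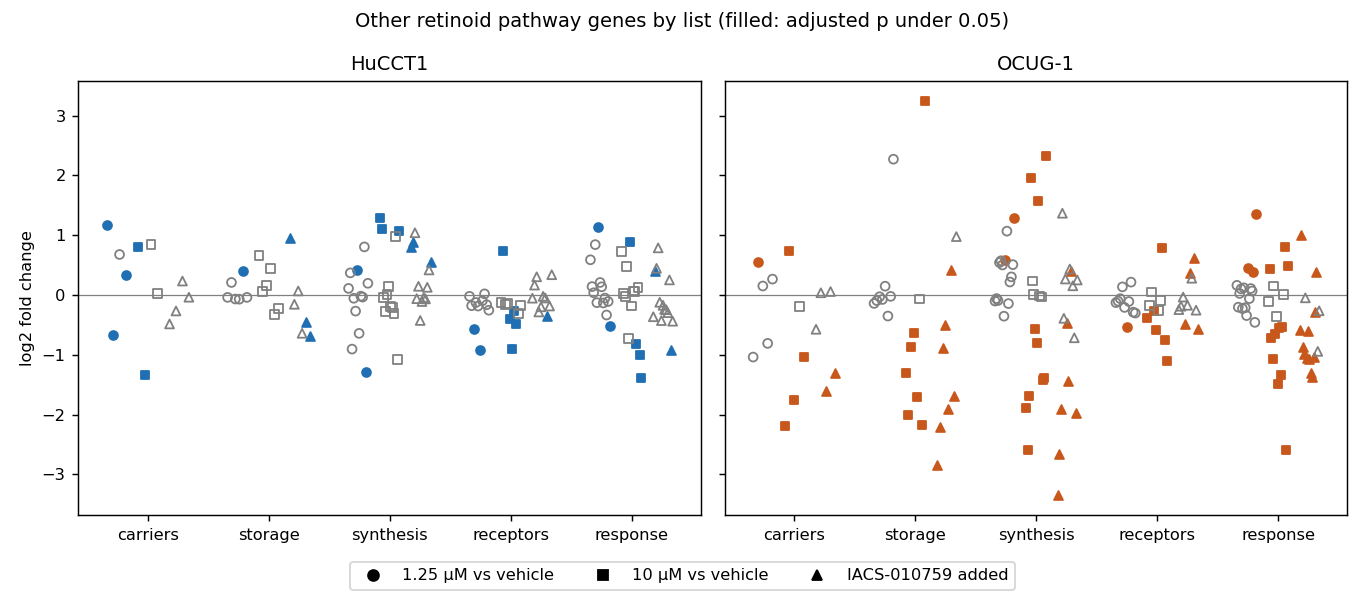
Log2 fold changes of the tested genes of 5 retinoid lists in HuCCT1 and OCUG-1; circles are 1.25 µM against vehicle, squares 10 µM against vehicle, triangles IACS-010759 added to 1.25 µM, and filled symbols had an adjusted p under 0.05. OCUG-1 at 10 µM and with IACS-010759 holds most of the filled symbols. Of all genes tested, 63.1% and 58.1% passed in these 2 comparisons, and at most 24.2% in the others shown. In each of the 2, 6 of the 8 storage genes lie below 0 and are filled (30.7% and 26.7% of all genes fell).

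The genes whose log2 CPM over the 12 libraries of a line most resembled the member with the widest range of group means (for STRA6 largely the fall it was chosen by) were named by Pearson's r, as a description over libraries that share 4 arms. In HuCCT1, among 9940 protein-coding genes, CGB5 (r = 0.982), LTBP3 (0.975), ANKS6 (0.969), COL17A1 (0.962) and ZFTA (0.962) were most like STRA6. DHRS3 had r = 0.948 and RARRES1 0.883 with it. In OCUG-1, among 10341 genes, TRIOBP (r = 0.989), CDH6 (0.983), PRKCSH (0.980), NTHL1 (0.978) and DCBLD2 (0.978) were most like DHRS3, with STRA6 at 0.971, ALDH1A3 at 0.968 and CYP26B1 at -0.393.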

How the data were processed

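RNA was measured by paired-end sequencing of TruSeq mRNA libraries from 24 cultures, 3 for each of 8 groups, per the labels. The authors deposited raw counts per Ensembl gene, 1 table per line and not normalized. The submitters' processing notes name fastp 1.3.2 (trimming), HISAT2 2.2.2 (alignment, GRCh38), Subread 2.1.1 with featureCounts (counting), bcl2fastq, MultiQC 1.33, DESeq2 1.42.1 and R 4.4.1. Which annotation release and strand option were used, and how multi-mapping reads were treated, is not given in the sources used here. Extra runs of 4 OCUG-1 libraries were pooled as technical repeats per the labels.

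From the counts, edgeR 4.0.16 in R 4.3.3 fitted quasi-likelihood models (TMM scaling, filterByExpr with a minimum count of 10, robust), 1 over the 12 libraries of each line for within-line comparisons and 1 over all 24 for comparisons of lines. Calls needed a Benjamini-Hochberg adjusted p under 0.05 over all genes tested. All 9 members passed the filter in each fit. A line difference is the OCUG-1 change minus the HuCCT1 change. The script was tested on simulated counts. Exon lengths and positions came from GENCODE release 29, promoter windows from RefSeq. Alternatives were DESeq2 1.42.0, its size factors, library size alone, no filter, only the compared libraries, a replicate block and leaving out each library. Pathway genes were named from the smallest adjusted p per list and line, and like genes by Pearson's r among those reaching 10 CPM. The members and the lists were chosen with earlier results of these data known.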

Additional observations from a re-analysis of the deposited data

Results flagged for a closer look

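For 8 of the 9 genes a treatment effect differed between the lines by the test of the difference itself, given here as the OCUG-1 change minus the HuCCT1 change on the log2 scale. At 1.25 µM sorafenib against vehicle the differences were 1.79 for STRA6, 1.17 for RARRES1, 1.4 for DHRS3 and -1.08 for ALDH1A1. At 10 µM, where the HuCCT1 libraries are those STRA6 and RARRES1 were chosen by, they were 1.92 for STRA6, 0.97 for RARRES1, -2.66 for ALDH1A1 and -0.77 for ALDH1A3, as a description. For IACS-010759 added to 1.25 µM sorafenib they were -1.32 for STRA6, -1.16 for RARRES1, -0.98 for CRABP2, -2.01 for ALDH1A1, -0.99 for ALDH1A3, -1.71 for DHRS3, -1.98 for RARB and -1.30 for RARG. The differences at 1.25 µM share the HuCCT1 vehicle libraries with the contrast that chose STRA6 and RARRES1. The adjusted p was under 0.05 for 4 of 9 genes at 1.25 µM, where it was for 9.65% of all genes. At 10 µM it was for 4 of 9 (43.8% of all genes), and for IACS-010759 added for 8 of 9 (38.8%). As given above, the RARRES1 differences at 1.25 µM and for IACS-010759 missed the threshold in some fits that left out 1 library. So did the ALDH1A1 difference at 1.25 µM. Line and culture medium cannot be told apart in any of the differences.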

How the results depend on the processing

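No called change turned its direction under any alternative run. The numbers of members called stayed within 1.5 times the reported value under each of them, with 3 exceptions among the fits that left out 1 library. The 2 calls for IACS-010759 added in HuCCT1 ranged from 0 to 2 (0 without 1.25 µM replicate 1 or 2 or combination replicate 2, and 1 without combination replicate 3). The 4 calls for the line difference at 1.25 µM ranged from 2 to 5 (2 without HuCCT1 vehicle replicate 1 or 1.25 µM replicate 2), and the 8 calls between the vehicle groups from 5 to 9 (5 without HuCCT1 vehicle replicate 1). With the replicate block, members called numbered 5 at 1.25 µM and 5 at 10 µM in HuCCT1, 2 and 6 in OCUG-1, and, for IACS-010759 added, 2 in HuCCT1 and 8 in OCUG-1. STRA6 at 1.25 µM in OCUG-1 had an adjusted p of 0.0535 with the block. The correlation of same-numbered libraries spanned -0.131 to 0.396 for HuCCT1 and -0.196 to 0.244 for OCUG-1, and 6 and 3 of 12 libraries correlated best with their own number, so the numbers were not taken as pairs. A call on OCUG-1 RARB at 10 µM against 1.25 µM was lost without 1.25 µM replicate 2 or 3 (adjusted p 0.0562 and 0.0857) and without the filter (0.0768). In the cases named, the cause was not tested. At 1 to 22 reads a library, depth limits CYP26B1 in OCUG-1.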

Other observations

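An interferon response list of 15 genes, all tested in both lines, was lower in HuCCT1 at 10 µM sorafenib and in the combination. At 10 µM against vehicle 14 of 15 fell (11.2% of all genes), and 15 of 15 fell when IACS-010759 was added to 1.25 µM (6.57%). Its summed level in HuCCT1 was 4315 to 5601 CPM in vehicle, 5081 to 5572 at 1.25 µM, 1196 to 2105 at 10 µM and 865.4 to 1012 in the combination. In OCUG-1 at 10 µM, 6 of 15 were higher and 3 lower, near the 32.4% and 30.7% of all genes. In vehicle all 15 were lower in OCUG-1 than in HuCCT1 (32.7% of all genes). The list was chosen with earlier results of these data known.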
